A study of Mus musculus with 2 samples.

Results

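In the heart of the mouse embryo at embryonic day 11.5, 271 of the 3443 p300 peaks found in the heart list alone lay in 46 dense runs of heart peaks. These run members are 7.87% of the heart-only peaks. A run was formed by ordering the 3597 listed heart peaks along each chromosome and linking peaks whose midpoints were at most 50 kb apart, and a linked series of 5 or more heart peaks was kept. The runs held 285 heart peaks, and the 14 that overlapped a listed midbrain peak by 1 bp or more were left out. The members were thus chosen by the heart reads behind the heart list and by the absence of an overlapping midbrain call, so their height in the heart is a description and not a finding. The whole series lists 6383 peaks in both tissues.

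The study compared heart with midbrain in CD-1 embryos of mixed sex. Each tissue gave 1 chromatin immunoprecipitation library, made with an antibody against p300 from the pooled tissue of about 150 embryos, so each value below stands for 1 pool and no difference has a replicate check. No treatment or genetic change is named for either group. Sequencing depth differed, with 1303861 aligned reads for heart and 5869671 for midbrain. Scaled to aligned reads in reads-per-million units (rpm), a single read counts 0.767 in heart and 0.170 in midbrain. In tissue of mixed cell types, fewer cells with p300 at a place and less p300 per cell cannot be told apart.

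p300 is a histone acetyltransferase that is brought to enhancers by transcription factors and acetylates the histones around them. Enhancers are stretches of regulatory DNA that raise transcription of a gene, often over a long distance and in a limited set of tissues. Developmental genes are commonly served by several enhancers spread over the same neighbourhood, and groups of closely spaced bound sites are therefore described as candidate enhancer clusters. At the stage studied the heart tube has looped and its chambers are forming, and the midbrain is a proliferating neuroepithelium that served here as the other tissue. Positions below are on the mouse build mm9, counted from 1.

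Most runs were small and a few were long. There were 23 runs of 5 heart peaks, 13 of 6, 1 of 7, 3 of 8, 3 of 9, 2 of 10 and 1 of 14. After the overlapping peaks had been left out, 1 run kept 2 members, 1 kept 3, 3 kept 4, and the other runs kept 5 or more. The runs spanned from 10 to 212 kb with a median of 61.4 kb, and together they covered 3.34 Mb, of which listed heart peaks filled 6.07%. The step from one heart peak to the next had a median of 7.86 kb (quartiles 2.61 and 21.7 kb). In the 565 shorter chains of 2 to 4 heart peaks the median step was 12.4 kb (quartiles 3.52 and 27.0 kb). Steps over 40 kb, close to the greatest distance that links peaks, made up 19 of the 239 steps in runs and 80 of the 758 in shorter chains.

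**Figure D1:**
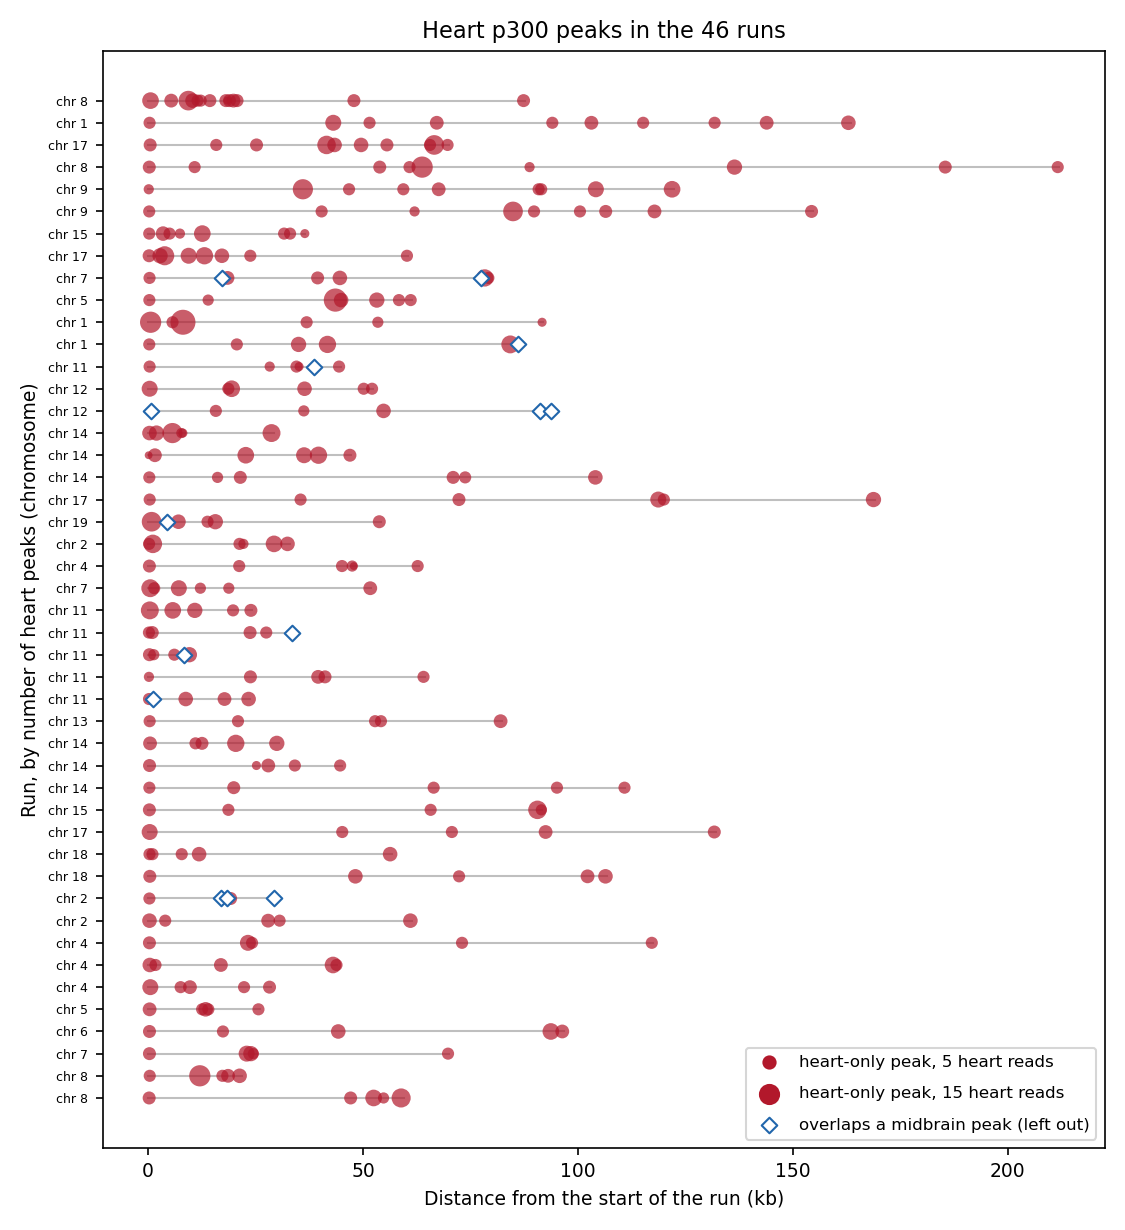
Each line is 1 of the 46 runs, ordered by its number of heart peaks, and the horizontal axis gives the distance from the start of the run in kb. Filled points are heart-only peaks, with an area that grows with their heart reads, and open diamonds are the 14 peaks left out because they overlap a midbrain peak, which occur in 9 runs.

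Some of this density came from peaks that almost touch. In 46 places, which is 19.2% of the steps, less than 1 kb separated the edges of neighbouring heart peaks, and 30 runs had at least 1 such place. Counting peaks this close as a single region left 239 regions in the 46 runs, and 30 runs still held 5 or more regions. The lowest number of regions in a run was 3.

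Run members stood higher in the heart list than heart peaks with no heart neighbour. Of the members, 69 (25.5%, exact 95% interval 20.4 to 31.1) had a rank of 1 to 500, where rank 1 is the best. Among the 1915 isolated heart-only peaks, which have no other heart peak within 50 kb, 199 (10.4%, interval 9.06 to 11.8) had such a rank, and among the 1257 heart-only peaks in chains of 2 to 4 there were 184 (14.6%, interval 12.7 to 16.7). The interval of the members did not overlap either of the others. Members of the same run share a locus, so these binomial intervals are narrower than the true uncertainty. Rank comes from the heart list that formed the runs, so the gap between the shares is a description and not a test. Of the 69 members, 36 were the best-ranked member of their run. Among the other 225 members, 33 (14.7%) had a rank of 1 to 500. Leaving out the best of each run lowers the share by itself, and the chains of 2 to 4 kept their best peaks.

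The typical member also stood somewhat higher than the typical isolated peak, with a median rank of 1512 against 1956. This was not particular to runs. The median rank was 1667 for heart-only peaks in chains of 2 to 4, and 1454 for those in chains of 4 alone. Members held a median of 6 heart reads (quartiles 5 and 8, range 1 to 27) and isolated peaks a median of 5 (quartiles 5 and 7, range 1 to 21). At least 10 heart reads were found at 46 members (17.0%, interval 12.7 to 22.0) and at 114 isolated peaks (5.95%, interval 4.94 to 7.11). At the weak end the measures differed. By rank, 109 members (40.2%, interval 34.3 to 46.3) and 936 isolated peaks (48.9%, interval 46.6 to 51.1) lay beyond 2000. By reads, 27 members (9.96%, interval 6.67 to 14.2) and 102 isolated peaks (5.33%, interval 4.36 to 6.43) held 4 heart reads or fewer. Heart-only peaks in chains of 2 to 4 were like members in their median of 6 heart reads and in the 40.3% beyond rank 2000. They had a lower share with at least 10 heart reads (8.91%) and with 4 or fewer (6.44%). Median widths were nearly equal at 655 bp for members and 654 bp for isolated peaks.

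Most runs held members from different parts of the list. In 36 runs the best-ranked member was among ranks 1 to 500, in 16 among ranks 1 to 100, and in 8 it lay beyond rank 1000. A member beyond rank 2000 was present in 44 runs, and 34 runs held both a member of rank 1 to 500 and one beyond 2000. Ranks beyond 2000 make up 44.4% of all heart peaks, so a series of 5 or more will often hold one, and nothing particular to runs is read from these counts. The member with the most heart reads took a median of 28.3% of the member reads of its run (range 15.6% to 54.5%). The best-ranked member was the first or last heart peak of the run in 17 runs and lay inside the run in 29.

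Over all 271 members, the heart library had 1889 reads and the midbrain library 927. Per member this came to a mean of 5.35 rpm for heart and 0.583 rpm for midbrain, and the heart value was 9.17 times the midbrain one (exact conditional interval 8.48 to 9.93). At isolated heart-only peaks the means were 4.67 and 0.482 rpm, with a ratio of 9.68 (interval 9.37 to 10), and the intervals of members and isolated peaks overlapped. Members therefore held somewhat more reads of both libraries, at a ratio that could not be told from that of isolated peaks at this depth, and which of the ratios is higher depends on the window counted. The interval lay on the heart side of 1 at 244 of 271 members (90.0%), against a background of 90.0% for all 3597 heart peaks (3236 peaks). That background includes peaks that overlap a midbrain peak. Among heart-only peaks outside runs the share was 92.7% (2939 of 3172). These shares are read no further because the heart reads chose the peaks. No midbrain read was found at 32 members (11.8%, interval 8.22 to 16.3), near the 11.6% of all heart peaks. A count of 0 allows up to 0.511 rpm in the midbrain library.

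**Figure D2:**
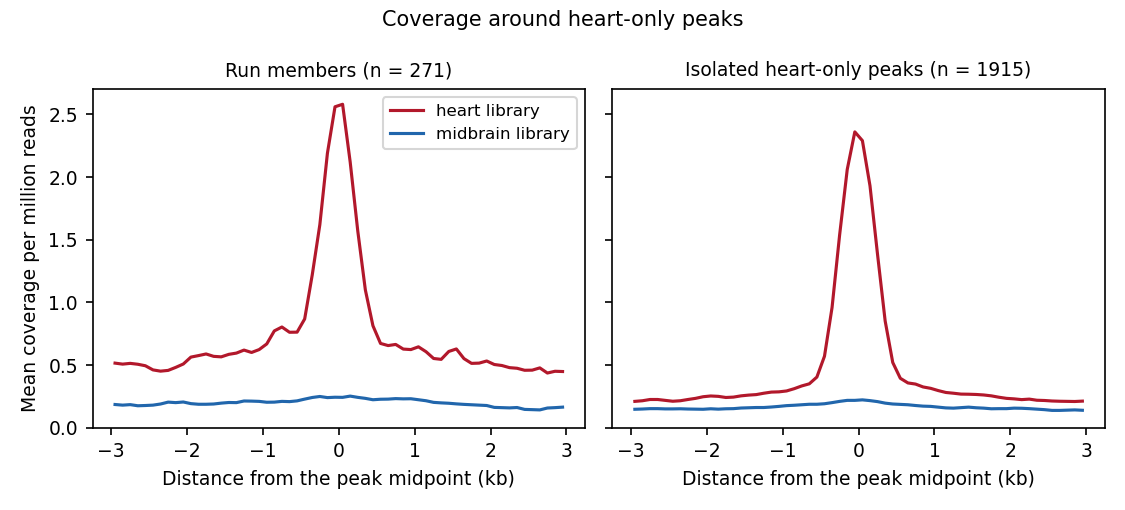
Mean coverage from the deposited tracks, scaled to library size, in 100 bp steps, plotted against the distance from the peak midpoint in kb, for the heart library (red) and the midbrain library (blue). The heart curve is nearly as high at the 1915 isolated peaks as at the 271 run members, its shoulders are higher at the members, where neighbouring peaks can fall inside the window, and the midbrain curve is low and broad in both panels.

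The coverage tracks gave the same picture in more detail. Within 100 bp of the midpoint, on the side of higher coordinates, mean heart coverage scaled to library size was 2.58 at members and 2.29 at isolated peaks. At about 2.95 kb on the same side it was 0.449 at members and 0.213 at isolated peaks. Midbrain coverage at members was 0.243 at the midpoint and 0.165 at that distance, and at isolated peaks 0.223 and 0.140. A broad and low rise of midbrain reads was thus present at members although none of them overlaps a midbrain peak. Against flanks 5 to 10 kb away the midbrain reads were 1.56 times as dense at members (interval 1.46 to 1.67) and 1.60 times as dense at isolated heart-only peaks (interval 1.56 to 1.65). Heart reads were 5.64 times as dense at members as in these flanks (interval 5.34 to 5.95) and 11.9 times at isolated peaks (interval 11.6 to 12.1). The flanks of members often hold other heart peaks of the run, and those of isolated peaks hold none.

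All 46 runs had more library-scaled reads at their members in the heart than in the midbrain, and in all 46 the interval of the ratio lay above 1, which the choice of heart peaks favours. The size of the ratio varied from run to run, from 3.09 to 29.5 with a median of 9.63. The intervals of 35 runs held the pooled ratio, those of 5 runs lay below it and those of 6 runs above it. Runs that also contain midbrain peaks had a lower pooled ratio. In the 15 runs with a midbrain peak inside the span, the 74 members had a ratio of 6.55 (interval 5.72 to 7.51), and in the 31 runs without one the 197 members had a ratio of 10.9 (interval 9.83 to 12). The intervals did not overlap, but members of a run share a locus, so they are narrower than the true uncertainty. The split used the midbrain peak list and the ratio divides by midbrain reads, so the lower value is favoured by the split. Of the 15 runs, 13 lay below the median ratio of all runs. The exceptions, picked after their values had been seen, were the runs at chr17:73253220-73422403 and chr14:120677461-120781980, each with 1 midbrain peak in its span. Their ratios were 22.5 (interval 10.4 to 55.7) and 12.8 (interval 6.44 to 27.1). The gap between the 15 and the 31 runs lay on the midbrain side, with means of 0.833 and 0.489 rpm in the midbrain against 5.46 and 5.30 rpm in the heart.

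**Figure D3:**
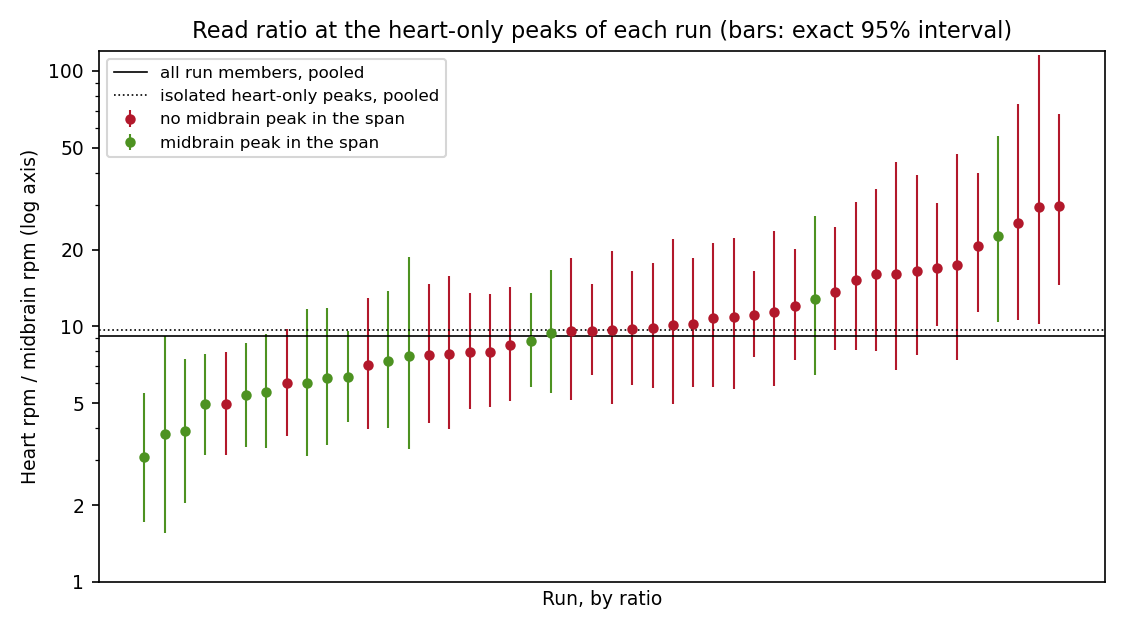
Heart over midbrain ratio of rpm, summed over the heart-only peaks of each run, on a log axis, with runs in order of their ratio and bars for the exact 95% interval. The runs with a midbrain peak in the span (green) lie mostly at the lower end, which reaches 3.09, with exceptions at 12.8 and 22.5. The highest run, at 29.5, has no midbrain peak in its span.

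The run with the most heart peaks lay at chr8:59792692-59880323, with 14 members over 87.6 kb and no midbrain peak within 50 kb. Its members summed to 96 heart reads and 39 midbrain reads (73.6 and 6.64 rpm), a ratio of 11.1 (interval 7.56 to 16.5). The best-ranked member, chr8:59801392-59802698 (rank 63), held 16 heart and 5 midbrain reads. Close packing marked this run: its median step was 1.16 kb, 7 of its gaps were under 1 kb, and the 14 peaks formed 7 regions when such gaps were closed. The first member held 11 heart reads at chr8:59792692-59793795 (rank 305), and the last 2 members, at chr8:59840069-59841049 and chr8:59879726-59880323, held 6 heart reads each and stood apart from the rest. One listed peak, chr8:59811009-59811209, held only 1 heart read and no midbrain read after reads had been placed, and it lies between larger neighbours. A stretch of 7.64 kb in this run, chr8:59868413-59876054, held no read of either library.

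**Figure D4:**
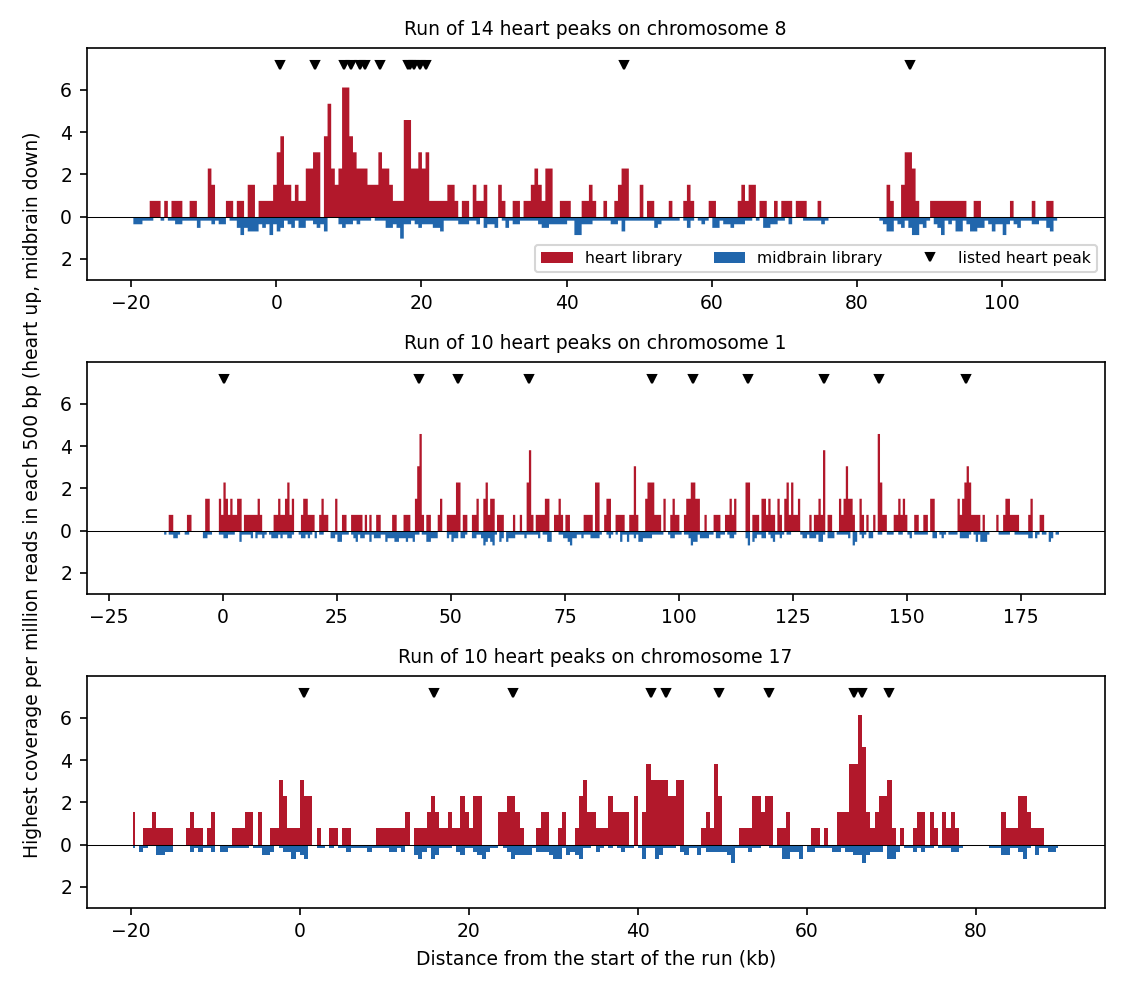
Highest coverage, scaled to library size, in each 500 bp along the 3 runs with the most heart peaks, against the distance from the start of the run in kb, with the heart library upward in red and the midbrain library downward in blue. Triangles mark listed heart peaks, which are crowded in the first part of the chromosome 8 run and spread along the chromosome 1 run, where no gap was under 1 kb.

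The 2 runs of 10 heart peaks differed in layout. The run at chr1:73952260-74115687 spread its 10 members over 163 kb with a median step of 15.6 kb. It held 64 heart and 14 midbrain reads, a ratio of 20.6 (interval 11.4 to 39.7). The ratio was 13.1 (interval 7.96 to 22.3) with whole 300 bp reads. It was 64.0 (interval 11.1 to 2567) with the midbrain library thinned to the heart depth. The thinning here and below was a single random draw, so its values at single runs also carry the error of that draw. Its best-ranked member, chr1:73995011-73995641 (rank 92), held 10 heart reads and no midbrain read. The run at chr17:12917533-12987506 packed 10 members into 70.0 kb with a median step of 6.16 kb, and held 79 and 37 reads, a ratio of 9.61 (interval 6.43 to 14.6), or 6.08 (interval 3.36 to 11.9) after thinning. Its best-ranked member, chr17:12983449-12984717 (rank 55), held 16 heart and 8 midbrain reads.

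The 3 runs of 9 heart peaks were widely spread, over 122 to 212 kb, against a median of 61.4 kb for all runs. The run at chr8:34952721-35164663 had the longest span of all, and its 64 heart and 24 midbrain reads made a ratio of 12 (interval 7.40 to 20.1), or 7.22 (interval 4.87 to 10.8) when every 300 bp read touching a peak was counted and 7.47 (interval 4.99 to 11.3) in 1 kb windows. The member chr8:35015847-35017071 (rank 13) gave 19 of its heart reads. The run at chr9:24657020-24779298 held 68 and 18 reads, a ratio of 17.0 (interval 10 to 30.4). The ratio of this run was 11.3 (interval 4.95 to 32) after thinning and 23.5 (interval 12.9 to 46.5) with a shift of 150 bp. Its best-ranked member, chr9:24692243-24693783 (rank 75), held 17 and 2. The run at chr9:63808284-63962911 held 58 and 19 reads, a ratio of 13.7 (interval 8.07 to 24.4). Its best-ranked member, chr9:63892737-63893592 (rank 11), held 16 and 4. None of these 3 runs had a midbrain peak within 50 kb.

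Of the 3 runs of 8 heart peaks, 2 kept all their peaks. The run at chr15:66970544-67007113 was compact at 36.6 kb and held 44 heart and 13 midbrain reads (ratio 15.2, interval 8.06 to 30.8). Its ratio was 9.18 in 1 kb windows, 9.90 with whole reads and 44.0 after thinning. Its best-ranked member was chr15:66973797-66974238 (rank 245), with 8 and 2 reads. The run at chr17:29571303-29631841 held 70 and 36 reads (ratio 8.75, interval 5.78 to 13.5) and contained 1 midbrain peak that overlaps none of its heart peaks. Its members ranked well, with a median rank of 526, and the best of them, chr17:29584132-29584667 (rank 24), held 12 and 4 reads.

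The highest ratios were found in runs with no midbrain peak within 50 kb. The run at chr5:122499715-122561092 had 7 members with 59 heart and 9 midbrain reads, a ratio of 29.5 (interval 14.5 to 67.7). From its start to its end the members held 5, 4, 23, 8, 9, 5 and 5 heart reads and 2, 0, 2, 1, 2, 2 and 0 midbrain reads. The third of them, chr5:122542479-122544058 (rank 5), was the best-ranked of all 271 members and took 39.0% of the run's member reads in the heart. The run at chr4:45481606-45544541 had 6 members with 26 and 4 reads (ratio 29.3, interval 10.2 to 115), none with more than 6 heart reads, and its best-ranked member, chr4:45481606-45482181, had rank 1118. The ratio of this run rested on the exact windows: in 1 kb windows it was 7.05 (interval 4.06 to 12.5), with whole reads 7.41, with a shift of 150 bp 11.7, and after thinning 13.0. The run at chr7:149645000-149715097 had 5 members with 34 and 6 reads (ratio 25.5, interval 10.6 to 74.3). Its best-ranked member, chr7:149668576-149669220 (rank 175), held 9 heart reads and 1 midbrain read. These 3 intervals overlap widely, so no order among the runs can be read from them.

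The lowest ratios were found in runs that had lost a peak to overlap. The run at chr11:68853360-68887282 had 4 members with 22 heart and 32 midbrain reads (16.9 and 5.45 rpm), a ratio of 3.09 (interval 1.71 to 5.49), and the interval of the single-peak ratio included 1 at 3 of the 4. Its best-ranked member, chr11:68853360-68853727, had rank 1862. The run at chr2:17949928-17980007 kept 2 members with 11 and 13 reads (ratio 3.81, interval 1.55 to 9.21), the better of them chr2:17968743-17969479 (rank 1585). It lost 3 peaks and its span contains 9 midbrain peaks, the most of any run. The run at chr11:18882134-18926892 kept 5 members with 20 and 23 reads (ratio 3.91, interval 2.04 to 7.45, or 2.44 in 1 kb windows), all of them weak, with ranks from 2524 (chr11:18910243-18910574) to 3378 and 2 to 5 heart reads.

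The other runs that lost peaks lay between these extremes. The run at chr7:80684893-80764251 lost 2 of 8 peaks, contains 4 midbrain peaks and had a ratio of 5.38 at its 6 members (interval 3.37 to 8.62), the best-ranked being chr7:80762663-80763757 (rank 177). The run at chr12:88142087-88236143 lost 3 of 6, and its 3 members had a ratio of 7.65 (interval 3.31 to 18.7), led by chr12:88196414-88197276 (rank 729). A single peak was lost from each of 4 further runs. At chr1:92101982-92188169 the ratio was 9.43 (interval 5.49 to 16.7), or 6.14 with whole reads, with chr1:92185652-92186804 (rank 136) as the best-ranked member. At chr19:5796575-5850722 it was 4.95 (interval 3.15 to 7.80). The best-ranked member there, chr19:5796575-5798176 (rank 110), held 16 heart and 26 midbrain reads, the most midbrain reads of any member, without overlapping a midbrain peak. At chr11:69223387-69233413, the shortest run, the ratio was 6.0 (interval 3.12 to 11.7), or 3.78 in 1 kb windows and 3.0 after thinning, led by chr11:69232533-69233413 (rank 423), and at chr11:94850232-94873958 it was 6.30 (interval 3.43 to 11.8), led by chr11:94873249-94873958 (rank 418). The 14 peaks that were left out had 123 heart and 245 midbrain reads and a ratio of 2.26 (interval 1.80 to 2.82), close to the 2.25 (interval 2.09 to 2.41) of the 140 overlapping heart peaks outside runs.

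The 5 members with the most heart reads varied widely in ratio. The largest count was 27 heart and 23 midbrain reads at chr1:88337310-88339945 (rank 22), a wide peak of 2636 bp with a ratio of 5.28 (interval 2.92 to 9.65). A second member of the same run, chr1:88330528-88331677 (rank 7), held 19 and 14 reads and had a ratio of 6.11 (interval 2.90 to 13.2). The rank 5 peak on chromosome 5 named above, with 23 and 2 reads, had a ratio of 51.8 (interval 12.8 to 453), and its interval did not overlap that of the chr1:88337310-88339945 peak. Each of the other 2 members held 19 heart reads: the rank 13 peak on chromosome 8 had 4 midbrain reads (ratio 21.4, interval 7.11 to 86.4), and chr8:86715309-86716904 (rank 39) had 10 (ratio 8.55, interval 3.78 to 20.6).

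Reads that lie between the listed peaks were then counted inside the runs, at least 1 kb from any listed peak of either tissue, and set against flanks 50 to 150 kb beyond each run. The heart library had 8.80 rpm per 10 kb between the peaks and 5.72 in the flanks, a ratio of 1.54 (interval 1.47 to 1.60). The midbrain library had 4.75 and 4.11 rpm per 10 kb, a ratio of 1.15 (interval 1.12 to 1.19). In the 31 runs with no midbrain peak in the span, the ratios were 1.53 (interval 1.45 to 1.61) for heart reads and 1.08 (interval 1.05 to 1.12) for midbrain reads, so the heart value was as large without the mixed runs. Between the peaks of the 34 runs of 5 or more midbrain peaks the order was turned, with 1.74 for midbrain reads (interval 1.69 to 1.79) and 1.47 for heart reads (interval 1.38 to 1.57). Heart reads below the level of a listed peak come from the same library that chose the runs, so the heart value is not independent of the choice.

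Run by run, heart reads were denser between the peaks than in the flanks in 44 of 46 runs, and the interval lay above 1 in 28 and below 1 in none. The fold ranged from 0.977 to 2.81 with a median of 1.60. For midbrain reads 34 of 46 runs were above their flanks, with the interval above 1 in 19 and below 1 in 2, and a median of 1.15. The heart fold exceeded the midbrain fold in 39 runs. The runs at chr1:73952260-74115687 and chr9:63808284-63962911 were the 2 in which midbrain reads were sparser than in the flanks with the interval below 1. Their heart folds of 1.57 (interval 1.24 to 1.97) and 1.93 (interval 1.54 to 2.43) stood against midbrain folds of 0.840 (interval 0.722 to 0.976) and 0.839 (interval 0.727 to 0.968). The run at chr9:24657020-24779298 showed no rise in either library, at 1.02 (interval 0.770 to 1.34) and 1.05 (interval 0.896 to 1.24). The run on chromosome 2 at 17949928 to 17980007, with 9 midbrain peaks in its span, had the highest midbrain fold, 5.16 (interval 4.01 to 6.56), over only 5.90 kb left between peaks.

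**Figure D5:**
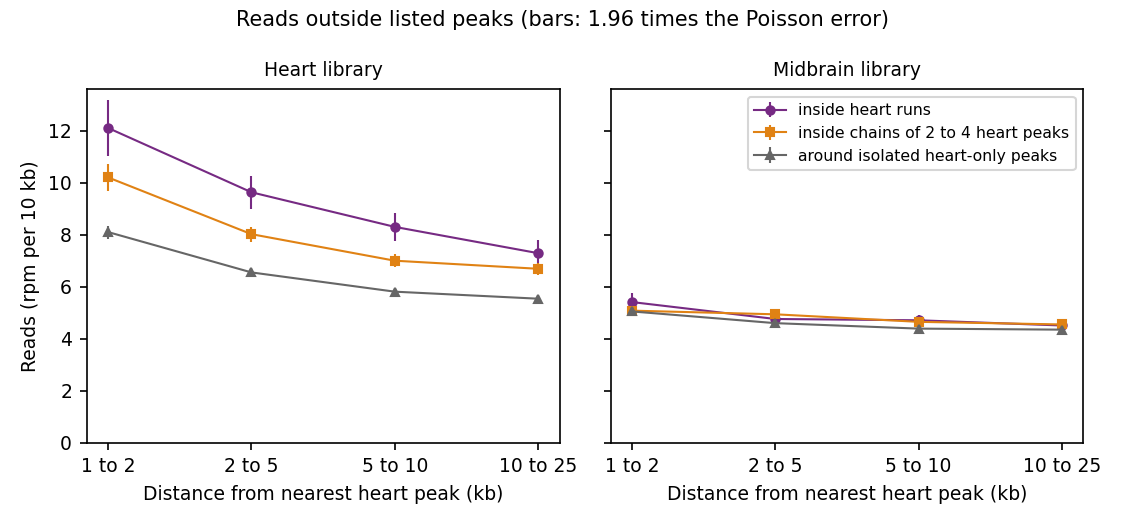
Reads outside listed peaks in rpm per 10 kb against the distance from the edge of the nearest listed heart peak, for the heart library (left) and the midbrain library (right), with bars for the 95% Poisson error. Heart reads fall from 12.1 to 7.29 rpm per 10 kb inside runs and from 8.10 to 5.54 around isolated peaks, while midbrain reads stay between 4.35 and 5.41 in every place shown.

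Heart reads were next compared at equal distances from a peak. At 1 to 2 kb from the nearest heart peak there were 12.1 rpm of heart reads per 10 kb inside runs, 10.2 inside chains of 2 to 4 and 8.10 around isolated heart-only peaks. At 10 to 25 kb the values were 7.29, 6.69 and 5.54. The order of the 3 settings was the same at 2 to 5 kb and at 5 to 10 kb. Midbrain reads at the same places were 5.41, 5.08 and 5.05 rpm per 10 kb at 1 to 2 kb, and 4.51, 4.55 and 4.35 at 10 to 25 kb. The heart over midbrain ratio inside runs was 2.24 at 1 to 2 kb (interval 2.01 to 2.50) and 1.62 at 10 to 25 kb (interval 1.49 to 1.76), and around isolated peaks it was 1.60 (interval 1.54 to 1.66) and 1.27 (interval 1.26 to 1.29). The mean over chromosomes 1 to 19 and X was 3.77 rpm per 10 kb in each library. A place inside a run has heart peaks on both sides and a place beside an isolated peak does not, and the part of this in the difference was not tested.

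Some of these reads were gathered in places that the heart list does not name. Of 5299 windows of 500 bp between the peaks of runs, 166 held 3 or more heart reads (3.13%, interval 2.68 to 3.64), against 223 of 18050 flank windows (1.24%, interval 1.08 to 1.41). With 5 or more heart reads there were 15 windows (0.283%, interval 0.159 to 0.466) against 10 (0.0554%, interval 0.0266 to 0.102), and they lay in 10 runs. The following were picked after their values had been seen. In the run with 14 heart peaks, chr8:59799516-59800015 held 6 heart and 2 midbrain reads, as many heart reads as the typical member. In the run on chromosome 5 with the highest ratio, the adjoining windows chr5:122550366-122550865 and chr5:122550866-122551365 held 6 heart reads each, with 0 and 1 midbrain reads. Outside chromosome 18, the windows with the most heart reads, 7 each, lay at chr15:38449330-38449829 and chr4:97424253-97424752 and also held 6 and 7 midbrain reads.

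Near the limits of the rule the intervals just inside and just outside overlapped. The 42 chains of 4 heart peaks, just outside, held 151 heart-only peaks with a ratio of 8.41 (interval 7.57 to 9.36). The 23 runs of 5, just inside, held 109 members with a ratio of 8.30 (interval 7.34 to 9.41). Reads between the peaks stood at 1.45 times the flanks for the heart library in chains of 4 (interval 1.37 to 1.53) and at 1.38 times in runs of 5 (interval 1.29 to 1.47). The longest step accepted within a run was 49.51 kb, and the nearest heart peak beyond the end of a run was 53.54 kb away.

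Runs were spread over 16 chromosomes and unevenly. Chromosomes 11 and 14 held 6 runs each, and 4 runs lay on each of chromosomes 4, 8 and 17. Run members made up 20.6% of the heart-only peaks of chromosome 14 (33 of 160), 19.2% of those of chromosome 17 (29 of 151) and 16.1% of those of chromosome 8 (33 of 205). Chromosomes 3, 10 and 16 held no run, with 178, 180 and 121 heart-only peaks, and neither did chromosome X with 21. In 2 places neighbouring runs were less than 500 kb apart. On chromosome 14, the runs chr14:26324439-26354793 and chr14:26530517-26575510 were 176 kb apart, and their ratios were 16.0 (interval 8.02 to 34.6) and 16.1 (interval 6.76 to 44.0). On chromosome 11, the run with the lowest ratio and the shortest run, both named above, were 336 kb apart.

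Members also lay near midbrain peaks more often than isolated heart peaks did. A midbrain peak was within 50 kb of 66 members (24.4%, interval 19.4 to 29.9) and of 228 isolated heart-only peaks (11.9%, interval 10.5 to 13.4). The 66 members came from only 17 runs, so far fewer than 66 independent places stand behind the share. The way the classes were formed also favours this difference. An isolated peak has no other heart peak within 50 kb, so no heart peak that overlaps a midbrain peak lies that near it. In 9 runs such overlapping peaks were present, each bringing a midbrain peak into the span. Their part in the difference was not tested. The median distance to the nearest midbrain peak was similar, at 336 kb for members and 348 kb for isolated peaks. In 29 of the 46 runs no midbrain peak lay within 50 kb of the span, and 102 members were over 500 kb from one.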

How the data were processed

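Each tissue has aligned reads, a peak list and a coverage track, as the authors deposited them. The build is mm9, which both the submitters' processing notes and the file headers name. Aligned reads are single positions lengthened to 300 bp, and their score column, as deposited, holds 1 in every line and was not used. The deposited coverage signal is in whole numbers at 25 bp steps, from unique reads lengthened to 300 bp and not scaled to library size, per the file headers. The peak lists give a rank and no height. How peaks were called, and against what control, is not given in the sources used here. The labels' shared protocol does not name heart.

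Reads were counted with Python 3.11.15, numpy 2.4.6, pandas 2.3.3 and scipy 1.17.1, by their 5 prime ends moved inward by 23 bp (heart) or 35 bp (midbrain), and scaled to all aligned reads. These shifts split evenly the strand offsets of 46 and 70 bp found within peaks. The profile of offsets was nearly flat and the heart value lies at the lower limit of the search. Both offsets are far below the fragments of 300 to 500 bp that the labels give for both libraries. The ratio at members, 9.17 with these shifts, was 9.19 without a shift and 9.28 with a shift of 150 bp. Ratios carry exact conditional binomial 95% intervals and shares exact Clopper-Pearson 95% intervals. Reads carry no molecular identifier, and in each library 0 reads repeat the 5 prime position and strand of another read. Intervals and the limit of 3 reads for a count of 0 cover counting error only. With 1 library per tissue no test was made. The computations were tested on simulated data. Figures were drawn with matplotlib 3.10.9.

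Runs given by position are those of 8 or more heart peaks, the 3 highest and 3 lowest by ratio, and those that lost a peak, 20 in all, with their best-ranked member and the 5 members with the most heart reads. None was taken from chromosome 18, where 2 runs are counted but not described. The members and this rule were chosen with earlier results of these data known. Motifs, sequences and neighbouring genes were planned and are not analysed here, because the annotation at hand is on another build.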

Additional observations from a re-analysis of the deposited data

How the results depend on the processing

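The number of runs and members depends on the rule. Against 46 runs and 271 members, a link of 25 kb gave 28 and 159, a link of 100 kb 79 and 474, at least 4 peaks 88 and 422, at least 6 peaks 23 and 162, joining peaks under 1 kb apart 30 and 172, and ranks 1 to 2000 alone 12 and 65. A reciprocal overlap of 50% kept 280 members. The ratio at members (9.17) fell to 7.02 in windows of 1 kb and to 6.78 when whole 300 bp reads that overlap a peak were counted, and that at isolated peaks (9.68) to 6.93 and 7.07, so which of them is higher changes with the window. After thinning the midbrain library to the size of the heart library, 108 in place of 244 members had an interval on the heart side, as fewer reads widen it. Flanks 150 to 250 kb away moved the ratio between peaks from 1.54 to 1.74 for heart reads and from 1.15 to 1.20 for midbrain reads, and runs formed after joining close peaks gave 1.11 for midbrain reads. The cause of these shifts was not tested. Counting whole reads and re-forming runs before counting between peaks were chosen after the data had been seen. Of 164 alternatives, 20 moved a main value and 24 left one the same, and 7 moved the ratio of a single named run and 113 did not. A ratio counted as moved when it left its main interval, and a count when it changed by more than a set factor. None of the ratios fell below 1, which the choice of heart peaks favours at members. Thinning was a single random draw of midbrain reads, and another draw could give other values and move other runs. In this draw it moved 4 runs: chr1:73952260-74115687 from 20.6 to 64.0, chr15:66970544-67007113 from 15.2 to 44.0, chr17:12917533-12987506 from 9.61 to 6.08 and chr11:69223387-69233413 from 6.0 to 3.0. For chr4:45481606-45544541 (29.3), windows of 1 kb gave 7.05 and whole reads 7.41. All ratios of named runs stayed between 2.44 and 64.0. Motif shares and neighbouring genes were not run. No paired analysis was possible because each tissue has 1 library. Depth limits single peaks most: with a median of 6 heart reads, their ratios are known only within wide bounds.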
